A study of Bos taurus with 2 samples.

Results

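The genes described here are 34 cell cycle genes, 14 of S phase and 20 of G2/M, out of 17846 genes counted in single cells of day 25 bovine embryos. The members are a given list of gene names, all of which were found in the count table. The embryos were chimeras, host embryos into which bovine embryonic stem cells (bESC) had been incorporated, flushed at day 25, minced, digested with papain and DNase I, sorted and loaded for droplet single-cell RNA-seq, which counts each captured transcript as 1 unique molecular identifier (UMI). There was 1 group of embryos, with 2 replicates and no untreated or non-chimeric control. How many embryos each replicate pooled, which cells the sort kept, and which cells came from the stem cells were not used here, and since nothing in the labels says that the replicates were separate embryos, p-values measure only the spread between these samples, which may be technical.

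Replicate 1 held 1939 cells with at least 500 detected genes and replicate 2 held 2420, with 11162815 and 15402255 UMIs. Cells were sorted into gates by genes outside the cell cycle. A cell was HBZ-high (erythroid) or PAG- or PRP-high (trophoblast, by pregnancy-associated glycoproteins and prolactin-related proteins) when those genes made up at least 1% of its UMIs. It was collagen VI-positive (mesenchyme) with at least 2 UMIs over COL6A1, COL6A2 and COL6A3, and a neuron with UMIs of at least 2 of the 5 genes DCX, STMN2, ELAVL3, ELAVL4 and INA. It was SOX2-positive (neural progenitor) with a SOX2 UMI and no other gate passed. In replicates 1 and 2 the gates held 667 and 937 SOX2-positive cells, 655 and 746 neuron cells, 48 and 81 collagen VI-positive cells, 12 and 9 PAG- or PRP-high cells, and 9 and 25 HBZ-high cells. The gates are not pure. The 9 neuron markers summed to 2406 and 2934 counts per 1000000 UMIs (CPM) in the neuron gate against 231 and 259 CPM in SOX2-positive cells, but SOX2 itself was still at 222 and 246 CPM in the neuron gate, and 51.0% and 55.0% of its cells had a SOX2 UMI. The 8 neural progenitor markers together separated these gates little. They summed to 3668 and 4103 CPM in SOX2-positive cells and 2722 and 3222 CPM in neuron cells. In collagen VI-positive cells they summed to 3011 and 3807 CPM, though SOX2 itself was at 27.4 and 6.88 CPM there. Beside its mesenchyme markers, the collagen VI gate carried a yolk sac and liver endoderm list at 22479 and 23836 CPM, with AFP and APOB at 0. The libraries shared 6 cell barcodes.

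A dividing cell copies its DNA in S phase and separates the copies in mitosis, after the G2 gap. S phase genes build the machinery of copying: the MCM proteins form the helicase that opens the DNA, CDC6 loads it, PCNA is the clamp of the polymerases, and RRM1, RRM2 and TYMS supply nucleotides. G2/M genes drive and carry out division: CDK1 with the B cyclins starts mitosis, Aurora and Polo kinases build the spindle, BUB1 guards chromosome attachment, and CDC20 and UBE2C direct the protein destruction that ends it. In the neural tube, progenitors divide and their neuron daughters leave the cycle.

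SOX2-positive cells had higher summed levels of both phases than neuron and collagen VI-positive cells, but ungated cells without a SOX2 UMI had similar levels. The balance between the phases overlapped between the SOX2-positive and neuron gates. A lower sum does not tell fewer cycling cells from fewer UMIs per cycling cell. The 14 S phase genes together stood at 1232 CPM in replicate 1 and 1220 CPM in replicate 2 of SOX2-positive cells. In the neuron gate they stood at 867 and 779 CPM, and in the collagen VI gate at 366 and 347 CPM. The order SOX2-positive, neuron, collagen VI-positive held on plain CPM in both replicates without overlap, for S phase and for G2/M. Of all genes tested, 38.5% were likewise higher without overlap in SOX2-positive than in neuron cells, and 65.8% than in collagen VI-positive cells. In collagen VI-positive cells 63% were lower without overlap than in neuron cells. The 20 G2/M genes stood at 1789 and 1641 CPM in SOX2-positive cells, at 1205 and 1165 CPM in neuron cells, and at 530 and 380 CPM in collagen VI-positive cells. Ungated cells, which passed no gate and had no SOX2 UMI, numbered 541 and 605. Their S phase sums were 1202 and 1170 CPM and their G2/M sums 1681 and 1721 CPM, close to those of SOX2-positive cells. Ungated cells were shallower, with medians of 2914 and 2815 UMIs against 5390 and 6433 UMIs in SOX2-positive cells. At that depth a missing SOX2 UMI does not show that SOX2 was absent. The sums of the trophoblast and erythroid gates rest on few cells and overlap those of other gates. S phase sums were 670 and 331 CPM in PAG- or PRP-high cells and 823 and 646 CPM in HBZ-high cells. G2/M sums were 473 and 1510 CPM in PAG- or PRP-high cells and 947 and 1175 CPM in HBZ-high cells.

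**Figure D1:**
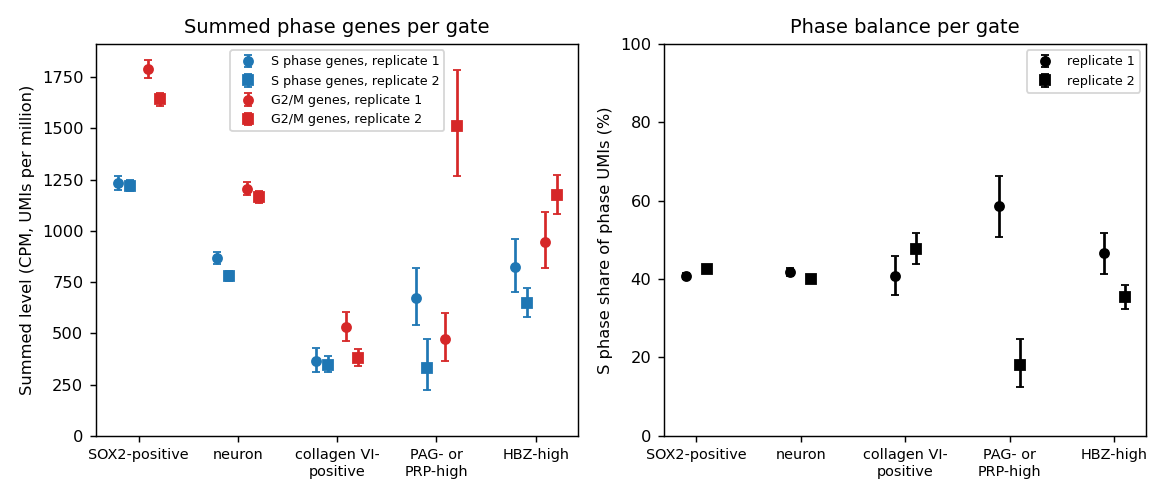
Left, summed level in CPM of the 14 S phase genes (blue) and the 20 G2/M genes (red) in each gate, 1 point per replicate, with exact 95% Poisson intervals that cover counting error only. Right, S phase share of the summed UMIs in percent, with exact 95% binomial intervals. SOX2-positive cells lie above neuron and collagen VI-positive cells in both sums, while the S phase share is close to 40% to 48% in all 3 of these gates.

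The phase balance is the S phase share of all UMIs of the 34 genes. In SOX2-positive cells it was 40.8% (exact binomial 95% interval 39.9% to 41.7%) in replicate 1 and 42.6% (41.9% to 43.4%) in replicate 2. In the neuron gate it was 41.9% (40.8% to 42.9%) and 40.1% (39.1% to 41.0%), so the values of these gates lay among each other. The collagen VI gate gave 40.8% and 47.7%, and HBZ-high cells 46.5% and 35.5%. PAG- or PRP-high cells gave 58.6% and 18.0%, a wider spread between replicates than in any other gate. On a log2 scale of S phase over G2/M, the means were -0.48 ± 0.08 for SOX2-positive, -0.53 ± 0.08 for neuron, -0.33 ± 0.29 for collagen VI-positive, -0.84 ± 1.91 for PAG- or PRP-high and -0.53 ± 0.47 for HBZ-high cells (SD, n = 2). The balance is a score over the members and is given as a description, with no test. CENPF, a kinetochore protein, gave 26.3% of all G2/M UMIs and TOP2A, the enzyme that untangles DNA, 13.6%, whereas HELLS, a chromatin remodeller, gave 10.2% of S phase UMIs. The G2/M sum therefore leans on a pair of genes more than the S phase sum does.

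All 34 members had a higher fitted level in SOX2-positive than in neuron cells, and 24 passed the test, 12 of S phase and 12 of G2/M. UMIs were summed per gate and replicate and tested with edgeR's quasi-likelihood test, blocked by replicate. Adjusted p-values are Benjamini-Hochberg values over 13064 genes, called at 0.05. Over all genes tested, 14.7% were called higher in SOX2-positive cells and 16.9% lower, so the share of called members was above that background. No member was called lower. The median log2 difference was 0.47 over the S phase genes and 0.40 over the G2/M genes, beside 0.01 over all genes. On plain CPM, in 32 of 34 members both SOX2-positive values lay above both neuron values, against 38.5% of all genes tested. Leaving out 1 replicate at a time turned the sign of CCNB1, AURKA and CDC20, none of which had passed, and of no other member.

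Among the S phase genes, the largest difference was at CDC6, the helicase loader. It stood at 57.7 and 48.0 CPM in SOX2-positive cells and at 26.7 and 21.8 CPM in neuron cells, a log2 difference of 1.03 (SE 0.14, adjusted p = 6.67e-06). MCM6, a helicase subunit, stood at 112.8 and 95.8 CPM against 59.0 and 52.2 CPM, a log2 difference of 0.81 (SE 0.12, adjusted p = 9.3e-06). RRM2, the small subunit of ribonucleotide reductase, stood at 103.9 and 91.7 CPM against 57.4 and 55.0 CPM, with a log2 difference of 0.69 (SE 0.12). None of these 3 genes overlapped between the gates, and 38.5% of all genes tested were likewise higher without overlap in SOX2-positive cells. The other helicase subunits MCM2, MCM3, MCM4 and MCM5 differed by 0.41 to 0.63 and all passed. HELLS differed by 0.61, SLBP, which binds histone mRNA, by 0.41, and GINS2, a partner of the helicase, by 0.40. Smaller differences passed at PCNA, with 0.31, and at TYMS, with 0.29, but of 20 alternative settings that kept both replicates 7 ended the call of PCNA and 9 that of TYMS, with adjusted p-values of 0.19 and 0.22 with no replicate block. GINS2 lost its call in 7 settings and SLBP in 5, whereas MCM6, RRM2 and HELLS kept theirs in all 20. Not all of the 20 could end a call. A minimum of 20 cells and a PAG and PRP share of at least 3% left this fit as it was, with 1918 genes higher and 2209 lower. HBZ of at least 3% (1908 and 2204) and leaving out globin, PAG and PRP genes (1918 and 2214) hardly changed it. RRM1, the large subunit of the same reductase as RRM2, stood at 116.6 and 99.7 CPM against 94.4 and 77.5 CPM and did not pass (log2 difference 0.24, adjusted p = 0.097), nor did UHRF1, which reads hemimethylated DNA (0.24, adjusted p = 0.11).

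Among the G2/M genes, the spindle pole protein ASPM and CDCA2 led. ASPM stood at 122.2 and 95.7 CPM in SOX2-positive cells and at 58.5 and 54.8 CPM in neuron cells, a log2 difference of 0.83 (SE 0.12, adjusted p = 7.05e-06). MKI67, the source of the Ki-67 antigen, stood at 104.9 and 90.2 CPM against 57.2 and 46.8 CPM, a log2 difference of 0.82 (SE 0.13, adjusted p = 2.22e-05). CDK1, the mitotic kinase, stood at 56.4 and 41.9 CPM against 27.8 and 25.2 CPM, a log2 difference of 0.78 (SE 0.15, adjusted p = 0.000332). In each of these genes the lower SOX2-positive value still exceeded the higher neuron value, as in 38.5% of all genes tested. CDCA2, a phosphatase partner on mitotic chromosomes, differed by 0.83, the kinesins KIF18B and KIF11 by 0.72 and 0.61, and CDCA8, a member of the complex that holds Aurora B, by 0.71. CENPE, NUSAP1, CCNB2, CENPF and UBE2C passed with 0.55, 0.44, 0.50, 0.36 and 0.32. UBE2C lost its call in 8 of the 20 settings, CENPF and CCNB2 in 5 each, and MKI67 in none.

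The other 8 G2/M genes did not pass. CCNB1, AURKA, AURKB, CDC20 and PLK1 had log2 differences of 0.08, 0.23, 0.27, 0.06 and 0.11, with standard errors between 0.17 and 0.24. All 5 stood under 29 CPM in both gates. BUB1 differed by 0.35 (SE 0.16), TOP2A by 0.25 (SE 0.10) and TPX2, a spindle assembly factor, by 0.17 (SE 0.10). The counts of SOX2-positive cells behind TOP2A (938 and 1289 UMIs) and TPX2 (468 and 763 UMIs) were among the higher ones of the list. Why these genes missed the threshold was not tested. CDC20, for example, stood at 23.4 and 28.6 CPM in SOX2-positive cells and at 22.8 and 23.9 CPM in neuron cells, values that overlap.

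**Figure D2:**
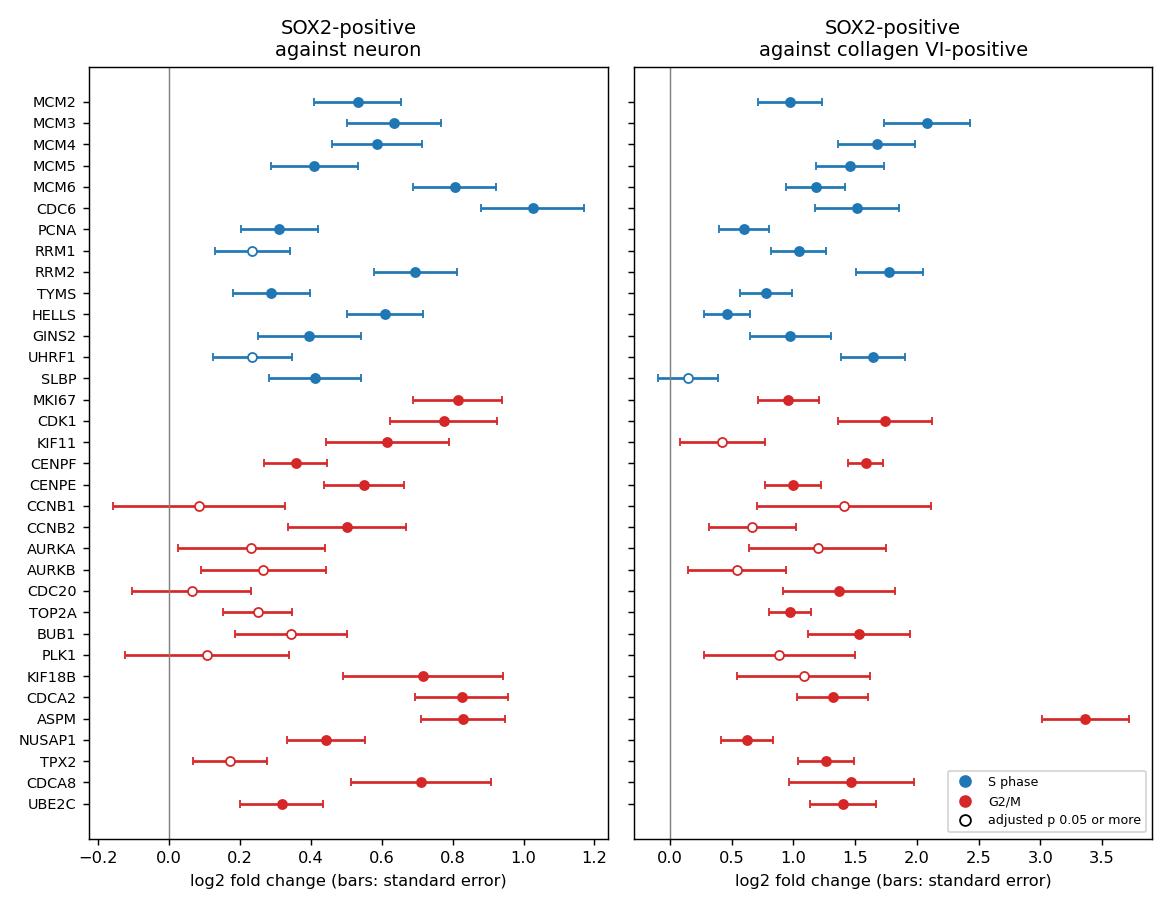
Log2 fold change of each member with its standard error, SOX2-positive against neuron (left) and against collagen VI-positive cells (right), from the edgeR fit over both replicates. Blue points are S phase genes, red points G2/M genes, and open points did not pass an adjusted p of 0.05. Every point lies above 0, CDC6 is farthest to the right on the left panel with 1.03 and ASPM on the right panel with 3.36.

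How far the neuron gate differs depends on how strictly a neuron is defined. With 3 of the 5 neuron genes required, 33 of 34 members were called higher in SOX2-positive cells (all genes 23.2%), with a median log2 difference of 0.98. With 4 of 5 required, again 33 were called (all genes 24.7%), with medians of 1.41 for S phase and 1.79 for G2/M genes. With neuron cells that had no SOX2 UMI, 31 were called (all genes 21.5%), with medians of 1.18 and 0.89. The settings of 4 genes and of no SOX2 UMI were chosen after the data had been seen. All 24 members called at 2 genes were also called under each of these 3 definitions.

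The levels followed the number of neuron genes detected in a cell. Over SOX2-positive, neuron and ungated cells, the S phase sum was 1221 CPM in both replicates in cells with none of the 5 genes. It was 1226 and 1079 CPM with 2 genes, 910 and 916 CPM with 3, 419 and 424 CPM with 4, and 358 and 328 CPM with all 5. Without thinning, the S phase sum therefore changed less up to 2 genes than beyond and was lowest at 5, in both replicates. The G2/M sum was 1706 and 1496 CPM with no neuron gene, 1685 and 1788 CPM with 2, and 1369 and 1454 CPM with 3. It was 831 and 504 CPM with 4 genes, where the replicates were far apart, and 202 and 171 CPM with 5. In cells with all 5 genes the G2/M sum lay below the S phase sum in both replicates, and the S phase share was 64.0% and 65.7%, against 41.7% and 44.9% in cells with none. Median depth moved with the step too, from 3543 and 3903 UMIs with no gene to 8429 and 8647 UMIs with 5. With every cell thinned to 2000 UMIs and the neuron genes counted anew, the S phase sum was 1217 and 1243 CPM with no gene. It was 961 and 869 CPM with 2 genes, 415 and 275 CPM with 3, 375 and 312 CPM with 4, and 406 and 367 CPM with 5. The G2/M sum was 1753 and 1799 CPM with no gene and 1447 and 1869 CPM with 2. It was 656 and 320 CPM with 3 genes, 358 and 167 CPM with 4, and 156 and 111 CPM with 5. At equal depth the S phase sum was thus lower already with 2 genes than with none, and both sums were lower with 3 or more. Only the G2/M sum was lowest at 5 genes in both replicates.

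**Figure D3:**
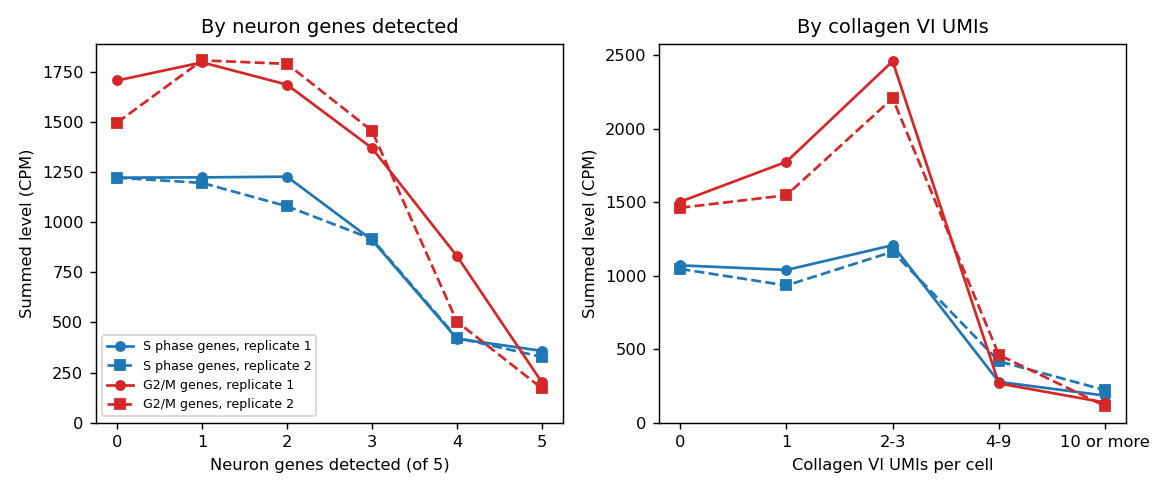
Summed level in CPM of the S phase genes (blue) and G2/M genes (red), 1 line per replicate, by the number of neuron genes detected (left) and by collagen VI UMIs per cell (right). Both sums are lowest at the last step, and there the G2/M sum lies below the S phase sum in both replicates.

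Among cells that had neuron genes and no SOX2 UMI, the balance was lowest in the middle of this range. Those with exactly 3 neuron genes, 76 and 66 cells, had S phase sums of 775 and 607 CPM and G2/M sums of 1658 and 1636 CPM. Their S phase share of 31.8% and 27.1% was the lowest of the 6 steps of cells without SOX2 UMI in both replicates. Cells with 3 neuron genes and a SOX2 UMI had shares of 45.5% and 43.6%. These classes differed in other ways: the median share of UMIs from ribosomal protein genes was 1.84% in both replicates without a SOX2 UMI, and 13.7% and 19.6% with one. Median depth was 3948 and 4180.5 UMIs without a SOX2 UMI, and 7330 and 8896 UMIs with one. The part of these differences in the balance was not tested. In thinned cells, not split by SOX2, the share at 3 genes was 38.8% and 46.2%, against 39.9% and 31.7% at 2 genes.

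Single members fell by very different amounts between cells with 0 or 1 neuron gene and cells with 4 or 5. KIF18B stood at 27.2 and 24.0 CPM against 1.30 and 1.48 CPM, a ratio of means of 18.4, from 2 and 3 UMIs in the latter cells. CDK1 stood at 58.5 and 45.8 CPM against 9.10 and 1.97 CPM, and MCM3 at 68.4 and 70.9 CPM against 7.80 and 7.39 CPM, ratios of 9.42 and 9.17. CDCA2, KIF11, MKI67, CDCA8 and HELLS followed with ratios between 6.89 and 8.26. At the other end RRM1 stood at 120.9 and 103.4 CPM against 67.0 and 59.6 CPM, a ratio of 1.77, and PCNA and SLBP had ratios of 2.05 and 2.16. For PLK1 the values overlapped, with 10.0 and 11.6 CPM against 10.4 and 7.39 CPM. The 33 other members were higher in cells with 0 or 1 neuron gene without overlap, as were 50.4% of all genes tested. Genes of 1 phase thus spread over the whole range, with MCM3 and RRM1, both of S phase, far apart.

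**Figure D4:**
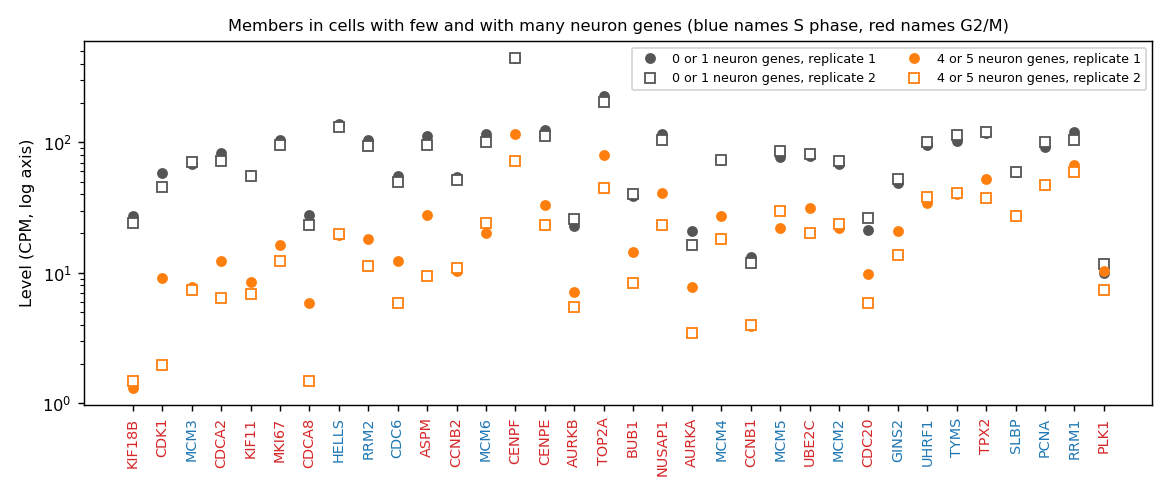
Level in CPM (log axis) of each member in cells with 0 or 1 neuron gene (grey) and with 4 or 5 (orange), circles for replicate 1 and squares for replicate 2, ordered by the ratio of means from KIF18B with 18.4 on the left to PLK1 on the right. Only for PLK1 do the grey and orange points overlap, while 50.4% of all genes tested were higher without overlap in the cells with 0 or 1 neuron gene.

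Against collagen VI-positive cells, 26 of 34 members were higher in SOX2-positive cells, 13 of each phase, and none was lower, while 22.4% of all genes tested were called higher and 23.5% lower. On plain CPM both SOX2-positive values lay above both collagen VI values for all 34 members, as for 65.8% of all genes, but on TMM-scaled values KIF11, CCNB2 and KIF18B, none of which passed, were lower in SOX2-positive cells in replicate 1. The median log2 difference was 1.11 for S phase and 1.23 for G2/M genes, beside 0.14 over all genes. ASPM stood at 122.2 and 95.7 CPM against 6.85 and 5.73 CPM, a log2 difference of 3.36 (SE 0.35, adjusted p = 3.13e-08). MCM3 stood at 69.9 and 71.5 CPM against 6.85 and 11.5 CPM, a log2 difference of 2.08 (SE 0.35, adjusted p = 3.26e-05). These 2 genes had the largest differences of their phases. RRM2, CDK1, MCM4, UHRF1 and CENPF followed with 1.78, 1.74, 1.67, 1.64 and 1.58. UHRF1, TOP2A, TPX2, BUB1, CDC20 and RRM1 passed here and not against neuron cells, and SLBP, KIF11, CCNB2 and KIF18B passed only against neuron cells. Whether a gene's difference is larger against one gate than against the other was not tested for these. CCNB1, AURKA, AURKB and PLK1 passed in neither comparison. These comparisons share the SOX2-positive sums.

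The result moves with the collagen VI threshold. Cells with 2 or 3 collagen VI UMIs (13 and 18 cells) had an S phase sum of 1208 and 1164 CPM and a G2/M sum of 2461 and 2209 CPM. With 4 to 9 UMIs the sums were 279 and 419 CPM and 268 and 462 CPM. With 10 or more UMIs (23 and 50 cells) they were 185 and 222 CPM for S phase and 138 and 114 CPM for G2/M, with an S phase share of 57.3% and 66.1%. The cells with the fewest collagen VI UMIs thus had phase gene levels as high as SOX2-positive cells, and those with 10 or more had less than any other step. The cells with 2 or 3 gave 169 of the 232 and 203 of the 332 G2/M UMIs of the gate. Their median ribosomal share was 3.70% and 16.2%, against 28.0% and 28.2% with 10 or more. Median depth rose from 4775 and 5636.5 UMIs to 13910 and 13663 UMIs between these steps. The part of depth and ribosomal share in the sums was not tested. With at least 4 UMIs required, the median log2 differences to SOX2-positive cells rose to 1.77 for S phase and 2.32 for G2/M. HELLS was an exception to the large differences, at 66.3 and 51.6 CPM in the gate as a whole (log2 difference 0.46, adjusted p = 0.047, a call lost in 13 of the 20 settings). SLBP at 32.0 and 30.9 CPM differed by 0.14 (SE 0.24). The log2 differences of HELLS and SLBP are TMM-scaled. On plain CPM both SOX2-positive values lay above both collagen VI values for these genes too, as for 65.8% of all genes.

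The direction between collagen VI-positive and neuron cells is not fixed by these data. At the main gates 13 members were lower in collagen VI-positive cells and none was higher, when 22.7% of all genes were called lower and 22.9% higher. With 4 of 5 neuron genes required, 14 members were higher and none lower (all genes 24.4% and 25.4%). With 3 required, 3 were higher and 4 lower (all genes 23.8% and 24.8%). The median log2 difference over S phase genes went from -0.53 at the main gates to 0.62 at 4 of 5, and over G2/M genes from -0.77 to 0.98.

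The trophoblast gate, with 12 and 9 cells, was below the minimum of 10 cells per replicate for the main test. A fit with a minimum of 5 cells was added after the data had been seen. It called 7 members higher in SOX2-positive cells and 4 higher in PAG- or PRP-high cells, while 29.8% and 17.8% of all genes were called in these directions. Both shares of the members lay below those of all genes, and the median log2 difference was 0.21 over the members and 1.20 over all genes. CDC6 had no UMI in either replicate of the gate against 227 and 300 UMIs in SOX2-positive cells. Against the 3 counts that no UMI allows, over both replicates, it was at least 4.01-fold lower. MCM6 had 1 UMI in the gate and was 23.8-fold lower (exact 95% interval of the counts 4.26 to 941), and ASPM, also with 1 UMI, was 24.6-fold lower (4.41 to 973). The 2 UMIs of UHRF1 gave a ratio of 11.6 (3.21 to 96.2) and the 3 UMIs of HELLS one of 10.2 (3.49 to 49.7).

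The genes called higher in the trophoblast gate were CCNB1, AURKA, CDC20 and UBE2C, and in replicate 2 most of their UMIs came from 1 cell. CDC20 stood at 70.6 and 99.2 CPM against 23.4 and 28.6 CPM in SOX2-positive cells, from 10 and 9 UMIs. The cell richest in phase genes held 8 of the 10 UMIs in replicate 1 and all 9 in replicate 2. In replicate 2 that 1 cell carried 118 G2/M UMIs and 77.2% of all phase UMIs of the gate, including 8 of 9 of CCNB1, 6 of 7 of AURKA and 19 of 23 of UBE2C. In replicate 1 the richest cell held 35.2%. UBE2C, at 14.1 and 254 CPM, overlapped the 85.1 and 88.8 CPM of SOX2-positive cells. Without the richest cells the S phase share of the gate was 62.9% and 50.0%, in place of 58.6% and 18.0%, and the G2/M sums were 328 and 308 CPM. An exception was RRM1, at 112.9 and 88.2 CPM, close to the 116.6 and 99.7 CPM of SOX2-positive cells, with 12 and 4 UMIs in the remaining cells.

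In HBZ-high cells the direction of most members depended on the scale, since globin genes made up 49.7% and 49.5% of their UMIs. On plain CPM, 22 of 34 members were lower than in SOX2-positive cells in both replicates and none higher, when 84.3% of all genes were lower, but with globin, PAG and PRP genes left out of the totals 16 members were higher and 4 lower, when 13.1% of all genes were higher and 66.2% lower. The S phase sums were then 1636 and 1280 CPM and the G2/M sums 1881 and 2329 CPM, against 1233 and 1221 CPM and 1791 and 1642 CPM in SOX2-positive cells. The added fit with a minimum of 5 cells scales by the bulk of genes (TMM). It called 22 members higher in HBZ-high cells and 1 lower, while 16.0% of all genes were called higher there and 19.9% lower. The median log2 difference, SOX2-positive over HBZ-high, was -1.22 for the members and 0.41 for all genes, and with DESeq2's size factors -0.94 and 0.69, with 19 members higher (all genes 13.6%) and 1 lower (all genes 29.3%).

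On this scale the erythroid gate was high in replication and proliferation genes but not in all of them. MKI67 stood at 133.1 and 89.8 CPM on all UMIs against 104.9 and 90.2 CPM in SOX2-positive cells (fitted log2 difference -1.84, adjusted p = 3.01e-10). TYMS stood at 103.6 and 120.4 CPM against 104.4 and 117.3 CPM (-1.76, adjusted p = 2.1e-10), and MCM5 at 98.6 and 84.1 CPM against 87.4 and 93.4 CPM (-1.68). All 3 overlapped between the gates on plain CPM and were called only after scaling. HELLS alone was called lower: it had 1 UMI in replicate 1 and none in replicate 2, against 512 and 833 UMIs in SOX2-positive cells. Its level was 95.9-fold lower on all UMIs (exact 95% interval 17.2 to 3789) and 48.4-fold lower with globin, PAG and PRP genes left out (8.67 to 1912). HELLS thus went against MCM2, MCM4, MCM5, PCNA, RRM2, TYMS, GINS2 and SLBP, which were called higher in the same gate. MCM3, MCM6, CDC6, RRM1 and UHRF1 were not called, and whether they differ from the called genes was not tested.

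Cell by cell, the phases were spread unevenly. After thinning to 2000 UMIs, which left out 65 and 69 shallower SOX2-positive cells, 58.5% and 52.5% of SOX2-positive cells had UMIs of both phases, 23.9% and 25.9% of S phase only, 9.14% and 9.91% of G2/M only, and 8.47% and 11.6% of neither. Without thinning 81.1% and 77.8% had both. The share with neither was 23.0% and 26.7% in thinned neuron cells (29 and 34 cells left out) and 51.1% and 39.7% in thinned collagen VI-positive cells (3 left out in each replicate). Unthinned, neither was found in 2.25% and 2.67% of SOX2-positive, 6.11% and 6.57% of neuron and 10.4% and 7.41% of collagen VI-positive cells. As a background, thinned cells with all 5 neuron genes, of which 1 and 0 were left out, had UMIs of both phases in 17.3% and 13.1% of cells. Among thinned cells with 10 or more collagen VI UMIs it was 8.70% and 8%. Median depths were 5390 and 6433 UMIs in SOX2-positive cells and 8429 and 8647 UMIs in cells with 5 neuron genes. HBZ, a marker of red cells, gave between 0.02% and 0.04% of UMIs in each of the 4 other gates. What free RNA brings to the cell cycle genes was not tested.

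G2/M counts were concentrated in fewer cells than S phase counts. In thinned SOX2-positive cells the 10% of cells richest in G2/M UMIs held 44.9% and 45.3% of them, and the 10% richest in S phase UMIs held 30.0% and 30.3%. The highest unthinned SOX2-positive cell had 209 G2/M UMIs, and the highest S phase count was 80. At least 10 G2/M UMIs were present in 13.8% and 11.9% of thinned SOX2-positive cells, in 7.35% and 9.27% of thinned neuron cells and in none of the 98 and 145 thinned cells with all 5 neuron genes. Unthinned, the shares were 30.9% and 32.9% of SOX2-positive cells and 23.7% and 23.5% of neuron cells. They were 2.02% and 1.38% of unthinned cells with all 5 neuron genes, where the highest cells had 38 and 28 G2/M UMIs.

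Within SOX2-positive cells, members of 1 phase had higher pairwise correlations than members of different phases, and after thinning this was clear only within G2/M. Over 667 and 937 cells, the median Pearson correlation between pairs of genes was 0.13 and 0.15 within S phase, 0.26 and 0.27 within G2/M and 0.06 in both replicates between the phases. These values describe sparse counts in cells that share a library and differ in depth, and after thinning they were 0.04 and 0.06, 0.15 and 0.14, and 0.04 and 0.02. TOP2A and TPX2 had the highest correlation with the mean of the other G2/M genes, 0.72 in replicate 1 and 0.74 and 0.72 in replicate 2. PLK1, AURKB and CDC20 had low ones, between 0.26 and 0.40. Of the S phase list, RRM2 and TYMS also went with the G2/M mean, with 0.37 and 0.27 for RRM2 and 0.29 and 0.20 for TYMS, as did CDC6 with 0.23 and 0.24. MCM5 and MCM2 did not, with -0.11 and -0.13 for MCM5 and -0.05 and -0.06 for MCM2.

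Outside all lists, the genes most like each phase over SOX2-positive cells were named by the lower of the 2 replicates' correlations with the phase mean. For S phase they were PCLAF, a partner of PCNA, with 0.36 and 0.39, then NASP, a histone chaperone, ZNF367, DNAJC9, CENPQ, CENPP, FANCI, NSL1, DSN1 and UNG, which removes uracil from DNA, with 0.28 to 0.40. For G2/M they included CEP55, with 0.52 and 0.51, and KIFC1, SPAG5, CIT, NCAPD2, CENPN, HMGB2, CKAP5 and G2E3, with 0.39 to 0.55. The correlations are described over 667 and 937 cells.

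In SOX2-positive cells the balance moved with the ribosomal share of a cell. SOX2-positive cells with under 10% of UMIs from ribosomal protein genes (452 and 527 cells) had S phase shares of 37.0% and 37.4%. Those with 10% or more (215 and 410 cells) had 47.2% and 47.9%, and the replicates did not overlap. The S phase sums were 1285 and 1341 CPM against 1168 and 1139 CPM, while the G2/M sums were 2191 and 2241 CPM against 1305 and 1239 CPM, so the larger difference was in G2/M. In the neuron gate the shares were 41.8% and 35.4% against 41.9% and 43.7%, nearly equal in replicate 1. In the collagen VI gate they were 32.5% and 51.3% against 53.5% and 46.9%, with opposite directions in the replicates. Within cells of 10% or more, SOX2-positive against neuron cells gave 9 members called higher (all genes 6.76%), 8 of S phase and 1 of G2/M, with medians of 0.50 and 0.15. CENPE, AURKA, KIF18B, NUSAP1 and TPX2 then had negative differences that did not pass. Median depth differed as well, with 4531 and 4626 UMIs under 10% and 8883 and 9474 UMIs above.

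Of all genes tested, 14.7% were called higher in SOX2-positive than in neuron cells and 16.9% lower. Of 32 other replication genes, 21 were higher in SOX2-positive than in neuron cells and none lower, with a median log2 difference of 0.55. Of 44 other mitosis genes tested, 27 were higher and none lower, with a median of 0.47. DTL, which directs the destruction of the licensing factor CDT1, stood at 207.1 and 175.2 CPM against 112.1 and 79.0 CPM (log2 difference 0.92, adjusted p = 2.22e-06). ATAD2, CLSPN and RFC4 differed by 0.84, 0.83 and 0.76, CDT1 by 0.66 and its inhibitor GMNN by 0.47. FOXM1, the transcription factor of many mitosis genes, stood at 16.0 and 15.7 CPM against 7.68 and 6.34 CPM (1.09, adjusted p = 0.00109). KIF14, SGO1, HJURP and CCNA2, the cyclin of S phase and G2, differed by 0.89, 0.84, 0.84 and 0.81.

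Control genes of G1 and the brakes went in both directions. Of 19 G1 and G1/S genes, 6 were higher and 1 lower in SOX2-positive than in neuron cells (all genes 14.7% and 16.9%). The lower one was CCND1, the G1 cyclin, at 91.2 and 103.4 CPM in SOX2-positive cells and 192.9 and 200.6 CPM in neuron cells (log2 difference -1.11, SE 0.10, adjusted p = 6.82e-09). CCND1 stood at 20.6 and 34.4 CPM in collagen VI-positive cells. E2F2, CCNE2 and CDC25A were higher by 0.90, 0.68 and 0.65, whereas CCND2, CCND3, CCNE1 and E2F1 did not pass, with 0.18, 0.47, 0.32 and 0.10.

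Of 11 tested brakes, 4 were higher and 4 lower in SOX2-positive than in neuron cells (all genes 14.7% and 16.9%). CDKN1C, an imprinted inhibitor of cyclin-dependent kinases, stood at 80.8 and 77.4 CPM in SOX2-positive cells and at 166.9 and 195.5 CPM in neuron cells (log2 difference -1.30, SE 0.10, adjusted p = 7.31e-10). It stood at 326.7 and 356.4 CPM in collagen VI-positive cells and at 846.7 and 1136 CPM in PAG- or PRP-high cells, and at 29.6 and 66.9 CPM in HBZ-high cells. The SOX2-positive, neuron, collagen VI and PAG- or PRP-high values did not overlap with each other. With globin, PAG and PRP genes left out of the totals, HBZ-high cells stood at 58.8 and 132.6 CPM, overlapping the 80.9 and 77.5 CPM of SOX2-positive cells. The inhibitors CDKN2D and CDKN1B were lower in SOX2-positive than in neuron cells too, with log2 differences of -2.14 and -0.55. CDKN1A, the inhibitor downstream of p53, and GADD45A went the other way, with 0.72 and 0.59. Against collagen VI-positive cells, CDKN1C, CCND2, CCND3 and CDKN1A were lower in SOX2-positive cells, with log2 differences of -2.86, -1.27, -1.45 and -1.14.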

How the data were processed

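The authors deposited 1 table of raw UMI counts per gene and cell from droplet single-cell RNA-seq. Per the submitters' processing notes, Cell Ranger, bosTau9, R 4.1.2 and Seurat 4.3.0 were used, with the roles not given. The deposited cells had 201 to 3999 detected genes. Cells with 500 or more genes were kept (4359 of 4437), and 24 cells passing several of the first 4 gates were left out as possible doublets, with no doublet caller run. Counts were summed per gate and replicate and CPM is counts per 1000000 UMIs of the sum. Tests used edgeR 4.0.16 in R 4.3.3 (TMM, filterByExpr, robust quasi-likelihood fit, 6 sums, 2 residual degrees of freedom) and a replicate block, with p-values adjusted by Benjamini-Hochberg. The standard error is the size of the log2 difference over the root of F. The same script was tested on simulated data. DESeq2 1.42.0 was an alternative.

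The gates of a replicate come from 1 suspension. Deviations of gates with the same replicate number correlated at 0.56, 0.24 and 0.34 over 5565 genes. The replicates were distinct libraries (chi-square per degree of freedom 14.7 over 15260 genes). Intervals cover counting error only. Thinning drew 2000 UMIs per cell without replacement, with shallower cells left out.

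The members and lists were chosen with earlier results of these data known. All 34 members could be named. Of each further list, the 4 largest called log2 differences in SOX2-positive against neuron cells, and CCND1, CCND2, CCND3, CDKN1A, CDKN1B, CDKN1C, CCNE1, CCNE2, CCNA2, E2F1, CDT1 and GMNN, were named. Of the marker lists, endothelial genes summed to at most 119 CPM in any gate. Myeloid genes summed to at most 6.88 CPM, except 635 and 871 CPM in PAG- or PRP-high cells, with PTPRC and TYROBP at 0. Promoter and protein sequences were not used here. One of the genes most like the G2/M list is not reported here.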

Additional observations from a re-analysis of the deposited data

How the results depend on the processing

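The counts of called members rest on a pair of replicates and on how cells were gated. SOX2-positive against neuron kept its direction in each alternative, but its 24 calls (all genes 14.7% higher) became 14 (8.01%) with no replicate block (the pairing of gates by suspension), 7 (2.32%) with DESeq2, 9 (6.76%) with a ribosomal share of 10% or more and 14 (10.5%) with cells thinned to 2000 UMIs. SOX2-positive against collagen VI-positive went from 26 (22.4%) to 8 (9.43%) with thinned cells and 9 (8.55%) with the highest 5% of UMIs left out. Calls of members higher in collagen VI-positive than in neuron cells, 0 at the main gates, were 3, 14 and 1 (all genes 23.8%, 24.4% and 25.0%) with 3 of 5 genes, 4 of 5 genes and no SOX2 UMI. Calls of lower members there, 13 at the main gates, were 4, 0 and 4 under these gates (24.8%, 25.4% and 25.5%), 27 (29.2%) with 4 collagen VI UMIs, 20 (24.4%) with a ribosomal share of 10% or more, 2 (11.4%) with thinned cells and 3 (12.2%) without the highest 5% of UMIs. The last 2 counts are a smaller share of the members than of all genes. The block moved no other count of calls by over 1.5 times.

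The log2 balance of S phase over G2/M moved in SOX2-positive cells to -0.14 (ribosomal share of 10% or more), -0.27 (each gene scaled to its mean) and -0.21 (HELLS and CENPF left out). In neuron cells it moved to -0.42, -0.30 and -0.22 under the same settings, -0.41 with 3 of 5 genes, -0.049 with 4 of 5, -0.71 with no SOX2 UMI and -0.66 thinned. In collagen VI-positive cells it moved to 0.45 with 4 UMIs, 0.014 with a ribosomal share of 10% or more and -0.72 without the highest 5% of UMIs. In PAG- or PRP-high cells -0.84 became 0.52 thinned and 0.13 without the highest 5% of UMIs, and in HBZ-high cells -0.53 became -0.17 with HELLS and CENPF left out and -0.20 thinned, each within the wide spread of the replicates. Leaving out 1 replicate gave -0.54 to -0.43 for SOX2-positive, -0.58 to -0.47 for neuron, -0.54 to -0.13 for collagen VI-positive, -2.19 to 0.50 for PAG- or PRP-high and -0.86 to -0.20 for HBZ-high cells. The cause was not tested for these changes.

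Log2 differences that turned negative, SOX2-positive against neuron, were CENPE -0.10, AURKA -0.085, KIF18B -0.33, NUSAP1 -0.0067 and TPX2 -0.058 with a ribosomal share of 10% or more, CCNB1 -0.73, CDC20 -0.31 and PLK1 -0.11 with thinned cells, CDC20 -0.0053 with 4 collagen VI UMIs. With 1 replicate left out at a time, CCNB1 ranged from -0.21 to 0.47, AURKA from -0.021 to 0.56 and CDC20 from -0.055 to 0.16. Against collagen VI-positive cells they were PCNA -0.0092 with thinned cells, KIF11 -0.30 with the highest 5% of UMIs left out. With 1 replicate left out at a time, KIF11 ranged from -0.45 to 1.32, CCNB2 from -0.11 to 1.48 and KIF18B from -0.098 to 3.55, each negative without replicate 2. With PAG- or PRP-high and HBZ-high cells no main test was made, since a replicate of each held under 10 cells.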
